A study of Drosophila melanogaster with 2 samples.

Results

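Genes for the proteins of the small subunit of the cytoplasmic ribosome carried CG2875 peaks at their start sites. The 38 genes were taken by symbol from the 13945 annotated protein-coding genes of Drosophila melanogaster: every RpS symbol, plus sta (stubarista), which encodes the ribosomal protein known as RpSA in mammals. Genes of the mitochondrial ribosome were left out. The rule reads gene symbols only. Each gene was described by its strongest peak with a summit within 500 bp of one of its annotated transcription start sites (TSSs).

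The study mapped CG2875 by chromatin immunoprecipitation and sequencing (ChIP-seq) in whole embryos of mixed sex collected from 0 to 14 h of development. The embryos came from 1 transgenic line that stably expresses CG2875 with green fluorescent protein at its C-terminus, and an antibody against green fluorescent protein was used. There was 1 group with 2 biological replicates (replicate 1 and replicate 2) and a control alignment shared by both, so no comparison between conditions was possible. Whole embryos mix all tissues, so a peak cannot be assigned to a cell type, and no library from embryos without the tag was used here.

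The small subunit reads the messenger RNA and checks each codon against a transfer RNA, whereas the large subunit joins the amino acids. Ribosomal protein genes are among the most highly transcribed genes of growing cells, and loss of 1 copy of many of them gives flies with slow development and thin bristles, the Minute phenotype. In Drosophila, transcription of most of these genes starts in a stretch of pyrimidines called the TCT or polypyrimidine initiator, in place of the common initiator, and they usually lack a TATA box. Another element known from Drosophila promoters is the DNA replication-related element (DRE), which is bound by the factor Dref.

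The stretches of DNA around the start sites of the most strongly marked genes are shown first, because the summits of these genes lay close to the start sites. The summit of RpS4 lay just before the shorter stretch printed for it. Each sequence is from the Release 6 genome (dm6), runs 5' to 3' on the strand of the gene and covers 80 bases before the annotated TSS closest to the summit and 20 bases from it. For RpS4 it begins 10 bases before the TSS, because another RpS4 transcript starts farther upstream. Capitals mark a TCT word (C or T, then CTTT, then C or T) whose second base lies within 10 bp of the TSS.
RpS27, chr3R:25247495-25247594 on the minus strand: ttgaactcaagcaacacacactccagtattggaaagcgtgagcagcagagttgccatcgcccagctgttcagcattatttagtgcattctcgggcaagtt
RpS4, chr3L:13041791-13041820 on the plus strand: cccgcaaatctgCCTTTTCCTTTTcctgtt
RpS25, chr3R:11216268-11216367 on the minus strand: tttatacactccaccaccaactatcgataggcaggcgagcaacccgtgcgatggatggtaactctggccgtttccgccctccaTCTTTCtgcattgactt
RpS10b, chrX:19597951-19598050 on the plus strand: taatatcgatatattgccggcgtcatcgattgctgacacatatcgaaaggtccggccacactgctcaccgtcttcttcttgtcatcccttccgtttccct
RpS4 has a pair of TCT words in tandem and RpS25 has 1. RpS10b has none in the window shown, although it has 1 at its TSS with the most transcripts, and RpS27, the gene with the strongest peak, has none. The complete DRE word TATCGATA begins 59 bp before the TSS of RpS25 (at -59) and 77 bp before that of RpS10b (at -77), in lower case above.

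Of the 38 genes, 27 (71.1%, exact 95% interval 54.1 to 84.6%) had a summit in the authors' reproducible list of 4278 peaks, made with the irreproducible discovery rate (IDR) and called the IDR list here. Across all protein-coding genes the share was 14%. The intervals are Clopper-Pearson intervals over genes and cover counting error only, since the same 2 libraries lie behind all genes. The signal values of these peaks are those of the strongest 4278 peaks of a longer list, made from the replicates joined (the pooled list), so the pooled signal sets membership. A replicate list is relaxed and contains background, so each was also cut to its 4278 strongest peaks by signal value, the peak caller's measure of enrichment. By that measure 23 genes (60.5%, against 13.5% of all protein-coding genes) were marked in replicate 1 and 27 (71.1%, against 14.5%) in replicate 2. Of the 38, 22 were marked in both, 5 in replicate 2 alone, 1 (RpS14a) in replicate 1 alone and 10 in neither. Among the other protein-coding genes 10.6% were marked in both.

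In the full relaxed lists of 30000 peaks nearly all of the genes had a summit. There were 35 genes (92.1%) in the pooled list, against 45.3% of all protein-coding genes. The counts were 34 (89.5%) in replicate 1, against 43.8%, and 36 (94.7%) in replicate 2, against 47.3%. Signal values are the authors' and are not scaled between lists, so replicates are set side by side below by rank, where 1 is the strongest peak of a list.

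**Figure D1:**
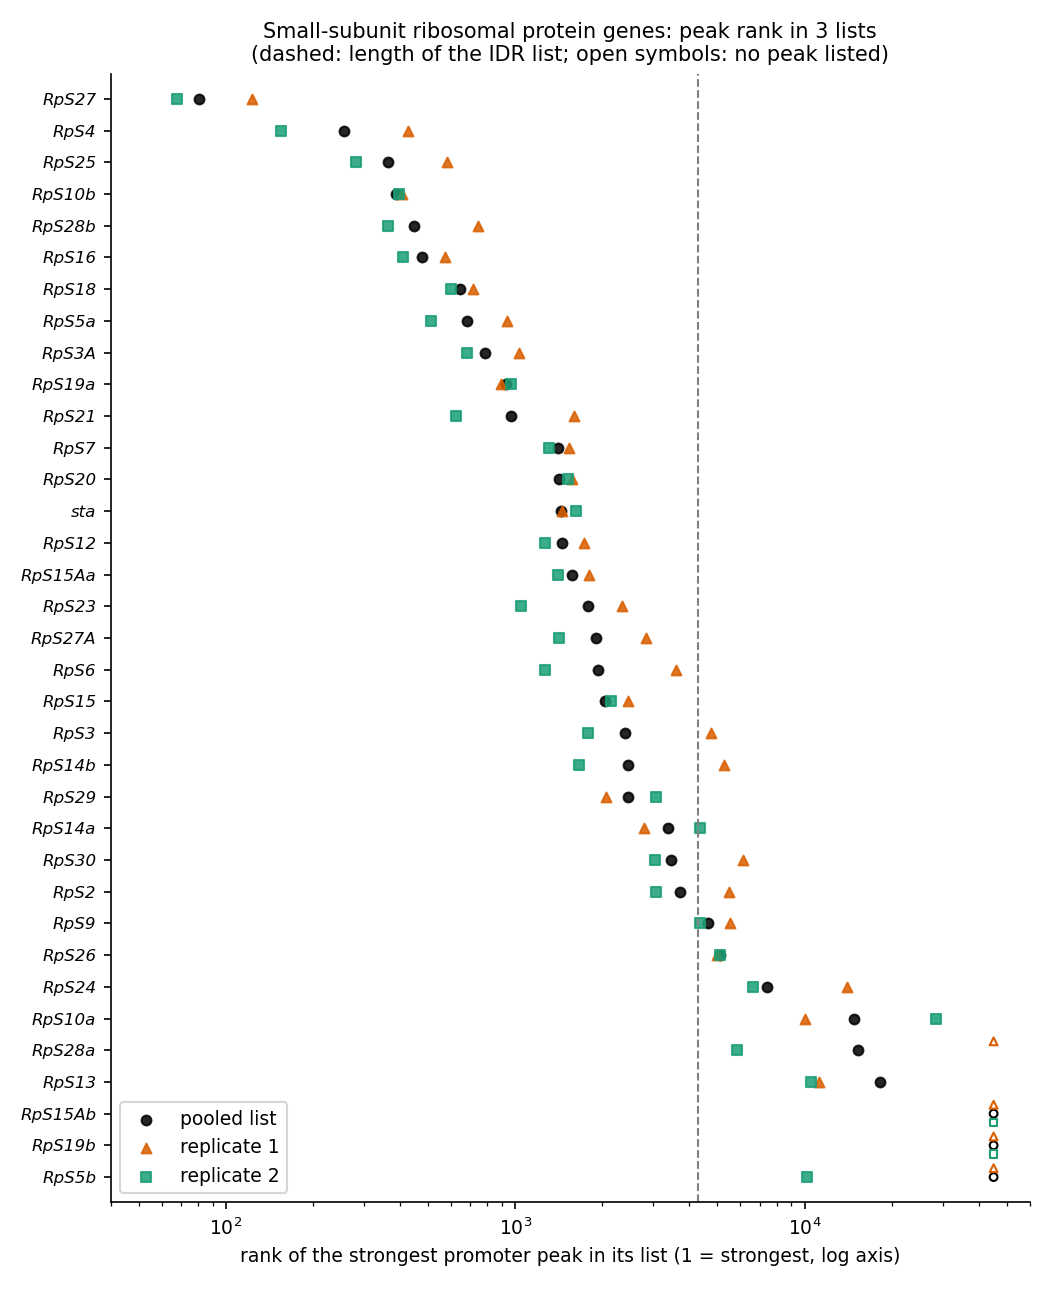
Rank of the strongest peak within 500 bp of a TSS for 35 of the 38 genes, in the pooled list (circles), replicate 1 (triangles) and replicate 2 (squares), on a log axis. The dashed line is the length of the IDR list (4278 peaks), and open symbols at the right edge mark lists with no peak for that gene. In replicate 1 the ranks of several genes in the middle of the order lie farther right than in replicate 2.

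RpS27, which encodes a zinc-binding protein of the subunit body, had the strongest peak. Its signal value was 348.4 in replicate 1 (rank 123), 483.6 in replicate 2 (rank 68) and 842 in the pooled list (rank 81). The summit lay at 3R position 25247509, in the 5' UTR 5 bp downstream of the start, within a peak of 329 bp (3R positions 25247357 to 25247685). The divergent gene Nup37, for a nuclear pore protein, starts 144 bp away, so that this peak lay within 500 bp of both starts, but the summit was closest to RpS27.

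RpS4, for another protein of the body, followed with 213.8 in replicate 1 (rank 427), 366.4 in replicate 2 (rank 155) and 564.7 pooled. Its summit, at 3L position 13041790, was 11 bp from the start, and within 1000 bp no other protein-coding gene begins. RpS25, whose protein in yeast and mammals is needed for initiation at some internal entry sites of viral RNA, had 181.1 and 293.7 (ranks 583 and 282) in replicates 1 and 2. Its summit lay 43 bp from the TSS.

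RpS10b, for a protein near the channel through which the messenger RNA enters, had 219.9 in replicate 1 and 255.1 in replicate 2, with nearly equal ranks of 405 and 396. RpS28b, for a protein near the channel by which it leaves, had 160.5 in replicate 1 (rank 741) and 265.1 in replicate 2 (rank 362). In all 5 of these genes both replicates placed the peak among the 1000 strongest of their list.

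The next genes in the order were RpS16, whose protein reaches with its tail towards the transfer RNA (pooled signal 429.1, ranks 574 and 410 in replicates 1 and 2), and RpS18, for a head protein that contacts the large subunit (370.3, ranks 716 and 602). RpS5a, for a head protein beside the exit channel, had 361.5 (ranks 937 and 513). RpS3A, for a protein of the platform and the one gene of the 38 on chromosome 4, had 331.5 (ranks 1028 and 682). RpS19a, whose human counterpart is mutated in Diamond-Blackfan anaemia, had 306.3 (ranks 891 and 968). RpS19a was the 1 gene of these 10 that ranked better in replicate 1.

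Lower in the list, RpS21, whose loss causes overgrowth of larval tissues in flies, had a pooled signal of 302.2 but ranked 1595 in replicate 1 and 626 in replicate 2. RpS23, which lies at the decoding centre, showed the same spread, with 211.8 and ranks of 2346 and 1050. RpS7 had 242.2 and RpS20 241.6. The signal of sta was 239.3, that of RpS12 237.9 and that of RpS15Aa 227.4. RpS6, whose protein is the classical substrate of S6 kinase, had 201.9 but ranked 3594 in replicate 1 and 1266 in replicate 2. RpS3, for a protein of the entry channel that is also studied in DNA repair, had 174.4 and ranks of 4730 and 1782. RpS30, which is made as a fusion with a ubiquitin-like protein, had 137.9 (ranks 6128 and 3034). RpS2, known in flies as string of pearls for its role in egg chambers, had the lowest value of the 27, 131.8 (ranks 5467 and 3061). RpS29, for a zinc-binding head protein, had 171.2 and was one of the few that ranked better in replicate 1 (2055, against 3071 in replicate 2). RpS15, for a head protein, had 193.1, and RpS14a and RpS14b are given with the duplicated genes.

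RpS27A, which encodes a ribosomal protein fused to ubiquitin, had signal values of 72.42 (replicate 1), 133.5 (replicate 2) and 203.8 (pooled). Its annotated start is also that of Ip259 on the same strand, so this peak belongs equally to both genes.

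Just inside the end of the IDR list, whose lowest signal was 119.5, lay RpS14a (140.2), RpS30 (137.9) and RpS2 (131.8). Outside it lay RpS9 (113.2) and RpS26 (105.3).

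Split by the place of the protein in the subunit, 13 of 18 genes for head proteins (72.2%) and 14 of 20 genes for body and platform proteins (70%) had an IDR summit. The head genes with a peak had a median signal of 306.3 (range 171.2 to 486.4), and the body and platform genes 219.6 (131.8 to 842). The range of the head genes lies inside that of the others.

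The 27 peaks were moderately strong. Their median IDR signal was 239.3 (quartiles 197.5 and 365.9), against 204.6 (148.2 and 325.9) at the 1919 other protein-coding genes with an IDR summit. Of the 27, 18 (66.7%, exact interval 46 to 83.5%) were above the median of all such genes, 204.9, as were 49.8% of the others. Among the 1000 strongest peaks were 11 of the 27 (40.7%, exact interval 22.4 to 61.2%), against 588 of 1919 others (30.6%). Both intervals include the share of the others. Genes for the large subunit had a higher median of 337.1 (n = 44).

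**Figure D2:**
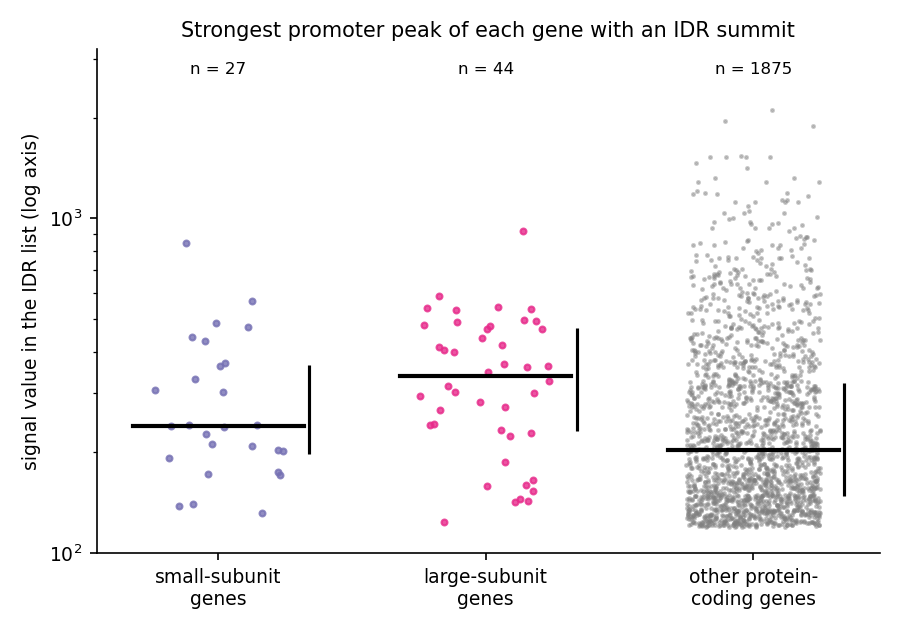
Signal value in the IDR list (log axis) of the strongest peak of each gene marked in that list, for small-subunit, large-subunit and other protein-coding genes. Points are genes, horizontal lines medians (239.3 for the small-subunit genes) and vertical lines interquartile ranges; the small-subunit genes lie inside the range of the others.

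The summits sat almost on the start sites. The median distance from the TSS was 19 bp in the 27 genes and 153 bp in the 1919 others. The TSS nearest to the summit was the gene's own in all 27 (ties counted), but in 74.9% of the others. The 153 bp therefore also includes summits nearer to the start of another gene. A summit within 50 bp was found in 24 of 27 (88.9%, exact interval 70.8 to 97.6%), against 286 of 1919 (14.9%), and all 27 were within 100 bp, against 32.2%. Counted from the 1 TSS with the most transcripts of each gene, 19 of 27 (70.4%) were within 50 bp, against 11.2% of the others. Among genes with 1 annotated TSS these shares were 7 of 10 (70%) and 11.6%, so the difference was also seen where the number of annotated starts was equal.

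In the direction of transcription the median position was -11 bp (quartiles -28.5 and 13.5, range -58 to 78), against -136 bp (quartiles -236.5 and -47) in the others. From the 1 TSS with the most transcripts the median of the 27 was 2 bp, just downstream, so its side of the TSS depends on the annotated start used. The summit was upstream of the TSS in 16 of 27 genes (59.3%), against 82.5%. By annotation 16 summits fell in a 5' UTR, 10 outside the gene and 1, that of RpS3 at 78 bp, in coding sequence. The summits of the 2 replicates were a median of 12 bp apart, and in 26 of 27 genes they lay within 50 bp of each other. The large-subunit genes were alike in this, with a median position of -17 bp and 36 of 44 (81.8%) within 50 bp.

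**Figure D3:**
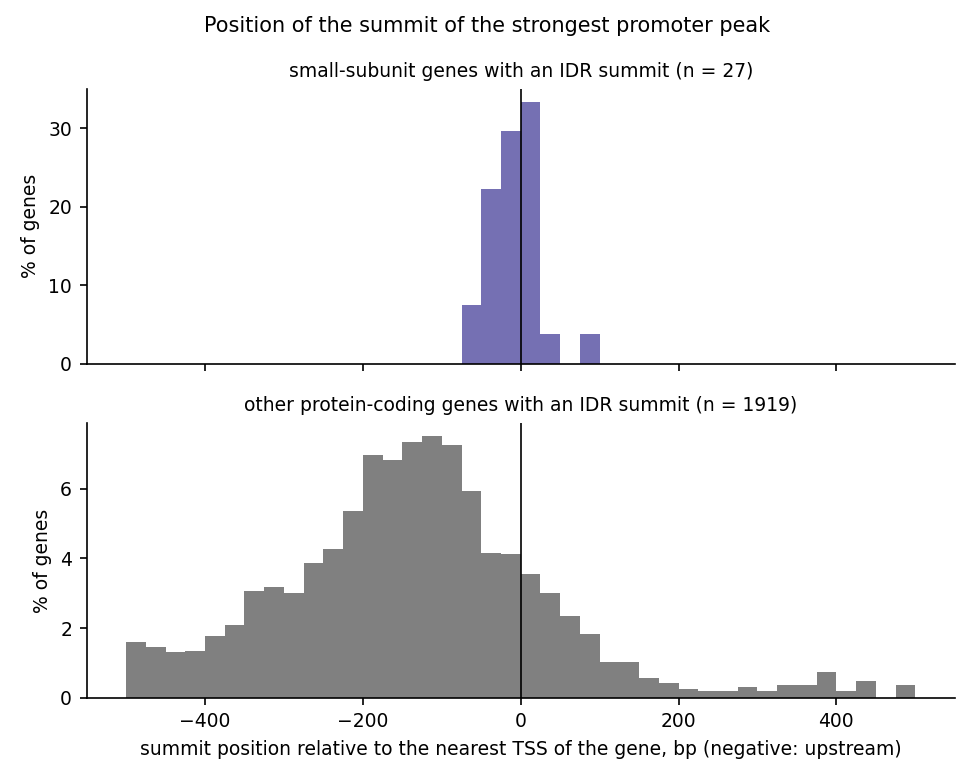
Summit position relative to the nearest TSS of the gene, in bp, as percent of genes in bins of 25 bp, for the 27 small-subunit genes (top) and the 1919 other protein-coding genes with an IDR summit (bottom). The small-subunit summits lie between -58 and 78 bp; the others spread over the whole window, mostly upstream.

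The peaks were also narrower. Their median width was 254 bp, against 424 bp in the others, which is the most common width in the list (67% of IDR peaks). Of the 27, 18 (66.7%) were narrower than 424 bp, against 34.5%. None of the 27 with a signal above 241.6, that of RpS20, had a peak of 424 bp. The part of signal in the difference in width was not tested. The large-subunit genes were alike in this too, with a median width of 281 bp.

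Replicate 2 ranked these genes better than replicate 1. The rank was better in replicate 2 in 23 of 27 genes (85.2%, exact interval 66.3 to 95.8%), against 944 of 1894 others (49.8%). The 4 exceptions were RpS19a, sta, RpS29 and RpS14a. Among large-subunit genes 34 of 43 (79.1%) ranked better in replicate 2. The median rank of the 27 was 1595 in replicate 1 and 1268 in replicate 2. The order of the genes was nonetheless similar in both (Spearman's rho 0.841 and Pearson's r on log2 signal 0.867 over 27 genes, which share both libraries; 0.767 and 0.825 over 1894 others). The lists hold no read totals, and the part of depth in this difference was not tested.

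Neighbouring genes were close to many of these starts. A gene on the opposite strand starts within 1000 bp upstream of 22 of the 38 (57.9%), against 39.6% of other protein-coding genes. Of these 22, 17 (77.3%) had an IDR summit, against 21.6% of such genes elsewhere. At 11 of the 27 genes the summit also lay within 500 bp of the TSS of another protein-coding gene. These included RpS27, RpS25, RpS16, RpS18, RpS19a, RpS21, RpS20, sta, RpS27A and RpS14a. For all 27 genes the annotated TSS nearest to the summit was their own, with RpS27A tied as above, against 74.9% of the others. Where no TSS of a second gene lay within 1000 bp, an IDR summit was found at 5 of 10 genes (50%, exact interval 18.7 to 81.3%), against 8.38% of 7209 others. The 5 isolated genes without one included RpS26, RpS24, RpS10a and RpS5b. With an opposite-strand protein-coding gene starting within 1000 bp upstream the median IDR signal was 242.2 (range 140.2 to 842, n = 17), and without one 189.1 (131.8 to 564.7, n = 10), so the ranges overlap.

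Many ribosomal protein genes carry small nucleolar RNAs, which guide the modification of ribosomal RNA, in their introns. Of the 13 small-subunit genes that do, 11 had an IDR summit with a median signal of 241.6 (range 171.2 to 564.7). Of the 25 that do not, 16 had one, with a median of 219.6 (131.8 to 842), so the ranges overlap. The share of all protein-coding genes was 14%, and a difference between hosts and other members was not tested. The GC content of the 300 bp promoter window was close to that of other genes (median 37.33% in the 38 genes and 38% in the others).

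On the X chromosome 9 of 9 genes carried an IDR summit (exact lower bound 66.4%), against 12.1% of other protein-coding genes there. Off the X it was 18 of 29 (62.1%, exact interval 42.3 to 79.3%), against 14.1%. The intervals of the X genes and the rest overlap. By arm, the counts elsewhere were 3 of 5 on 2L, 4 of 7 on 2R, 2 of 4 on 3L, 8 of 12 on 3R and 1 of 1 on chromosome 4. The shares of the other protein-coding genes on these arms were 14.5%, 12.9%, 14.5%, 14.6% and 10.1%, in this order.

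The promoters shared letters as well as peaks. A TCT word within 10 bp of the TSS with the most transcripts was found in 21 of 38 genes (55.3%, exact interval 38.3 to 71.4%), against 2.72% of 13907 other protein-coding genes and 4.85% of the 1919 others with an IDR summit. It was searched on the strand of the gene. In the 20 genes with a peak and a TCT word at the TSS closest to the summit, the summit lay a median of 14 bp upstream of the word's second base (median difference -14 bp, range -59 to 75). Only words within 10 bp of that TSS were used, so this distance largely restates that of the summit from the TSS. The share was 37 of 54 (68.5%) among large-subunit genes.

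Whether the TCT word was more frequent in genes with a peak depended on the TSS used. At the TSS with the most transcripts it was present in 16 of 27 genes with an IDR summit (59.3%, exact interval 38.8 to 77.6%) and in 5 of 11 without (45.5%, 16.7 to 76.6%). Within 20 bp of that TSS the counts were 17 of 27 (63%) and 7 of 11 (63.6%). At the TSS closest to the pooled summit, or the TSS with the most transcripts where there was none, they were 20 of 27 (74.1%, 53.7 to 88.9%) and 3 of 11 (27.3%, 6.02 to 61%). At any annotated TSS they were 23 of 27 (85.2%) and 6 of 11 (54.5%). The intervals overlap for every TSS and distance used, also at any annotated TSS (66.3 to 95.8% and 23.4 to 83.3%). Genes with the word at the TSS with the most transcripts had a median IDR signal of 264.8, and those without it 239.3. RpS27 had the highest signal and no word at its TSS.

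The DRE, searched as TATCGATA on both strands from 250 bp before to 50 bp after the TSS, was present in 13 of 38 genes (34.2%, exact interval 19.6 to 51.4%), against 9.16% of the other protein-coding genes. It was present in 10 of 27 genes with an IDR summit (37%) and in 3 of 11 without (27.3%), with intervals of 19.4 to 57.6% and 6.02 to 61% that overlap. Motif 1 (GGTCACAC), the site of the factor M1BP, was present in 5 of 38 (13.2%, 4.41 to 28.1%), against 7.77%. GAGA words (GAGAG) were present in 4 of 38 (10.5%, 2.94 to 24.8%), against 30.3%. GATA words (TGATAA) were present in 5 of 38 (13.2%, 4.41 to 28.1%), against 22.8%. These 3 words were searched in the same window on both strands. The intervals for motif 1 and GATA include the shares of the other genes.

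None of the 38 had the common initiator word TCAGT within 10 bp of the TSS, which allows a share of up to 9.25%, against 13.8% of the others. A TATA box (TATAAA between 45 and 15 bp before the TSS) was also found in 0 of 38, against 9.2%, and the E-box CACGTG in 0 of 38, against 4.21%. The limit of 9.25% includes both of these shares, so neither word can be called rarer here. Of the others with an IDR summit 3.34% had a TATA box. A word is a match of letters and not a shown binding site.

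**Figure D4:**
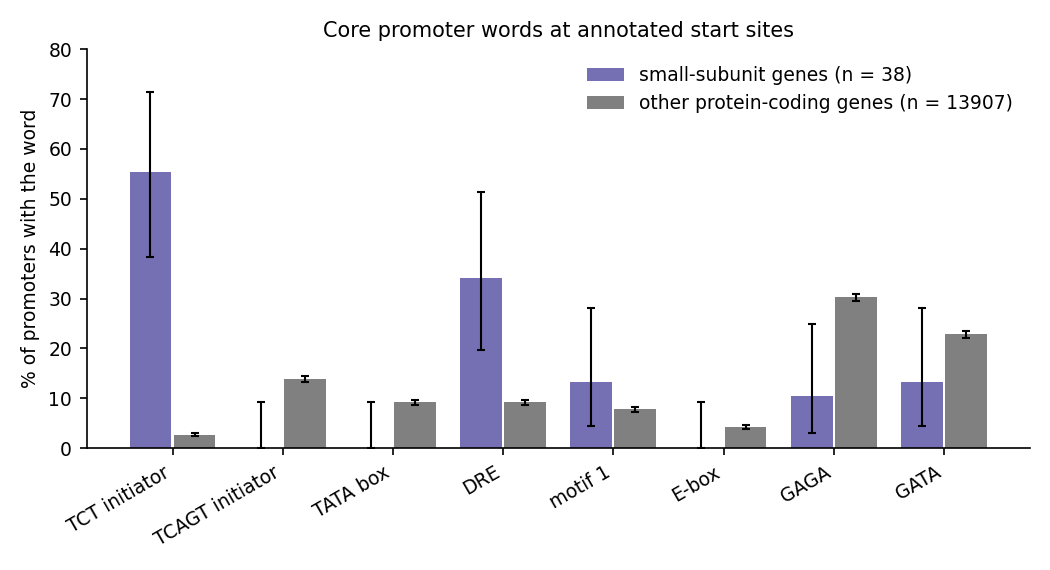
Percent of promoters that hold each word, for the 38 small-subunit genes (left bar of each pair) and 13907 other protein-coding genes (right bar), with exact 95% intervals. The TCT word stands at 55.3% of the small-subunit genes against 2.72% of the others, and TCAGT, TATA box and E-box at 0 of 38.

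The 6 pairs of duplicated genes differed in their peaks. In 5 pairs 1 copy had an IDR summit and the other had none, and in the pair RpS14a and RpS14b both had one. Among duplicated genes 7 of 12 (58.3%) had an IDR summit, against 20 of 26 single-copy genes (76.9%). Each of the 26 single-copy genes had a summit in the pooled list. In contrast, the 3 genes with no pooled summit, RpS5b, RpS15Ab and RpS19b, are all copies in a pair, and RpS15Ab and RpS19b had none in any of the 4 lists.

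The start sites of the copies, printed in the same way, show where the DNA of each pair differs.
RpS5a, chrX:17148245-17148344 on the minus strand: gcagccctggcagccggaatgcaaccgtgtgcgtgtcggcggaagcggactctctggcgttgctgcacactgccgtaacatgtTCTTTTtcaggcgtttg
RpS5b, chr3R:14901544-14901643 on the minus strand: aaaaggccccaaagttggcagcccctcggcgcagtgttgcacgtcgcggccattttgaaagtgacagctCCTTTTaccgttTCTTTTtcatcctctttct
RpS10a, chr3R:27652680-27652779 on the plus strand: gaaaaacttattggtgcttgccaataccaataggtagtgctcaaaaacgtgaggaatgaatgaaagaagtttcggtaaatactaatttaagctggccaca
RpS19a, chrX:16637814-16637913 on the plus strand: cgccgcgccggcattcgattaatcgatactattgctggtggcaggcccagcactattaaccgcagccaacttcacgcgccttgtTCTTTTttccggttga
RpS19b, chr3R:23933511-23933610 on the minus strand: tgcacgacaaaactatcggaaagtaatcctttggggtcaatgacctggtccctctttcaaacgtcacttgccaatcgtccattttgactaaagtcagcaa
RpS28a, chr3R:30022629-30022728 on the minus strand: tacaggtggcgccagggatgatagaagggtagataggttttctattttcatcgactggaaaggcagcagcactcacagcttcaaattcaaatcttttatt
RpS28b, chrX:9554543-9554642 on the plus strand: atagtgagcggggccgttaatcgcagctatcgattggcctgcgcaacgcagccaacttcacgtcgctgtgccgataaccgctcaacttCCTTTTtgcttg
RpS5a, RpS19a and RpS28b, each with an IDR peak, have a TCT word at the TSS shown. RpS10a, RpS19b and RpS28a, each without one, have none within 10 bp, although RpS28a has a word with its second base 12 bp after the TSS, just past this limit. RpS5b also lacks an IDR peak and has a pair of TCT words.

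RpS5a, the copy used broadly, reached 361.5 in the pooled list. RpS5b, the copy known for its role in the ovary, had no pooled or replicate 1 peak, and 39.42 in replicate 2 (rank 10201). The coding sequences are 77.7% identical. RpS10b reached 475.3 in the pooled list, against 49.82 for RpS10a, for which replicate 1 gave 32.06 and replicate 2 gave 20.21, with 74% identity. RpS19a had 306.3 and RpS19b, a copy of the germ line, no peak, with 66.7% identity. RpS28b had 443.2 and RpS28a 48.94, with 76.9% identity.

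The RpS28a summit lay 337 bp from its start and nearer to that of Mgat2, an enzyme gene of protein glycosylation, and was absent from replicate 1. RpS15Aa had 227.4 (97.18 in replicate 1 and 134.1 in replicate 2) and RpS15Ab no listed peak, although the coding sequences are 98.2% identical. Of the 36-base words of the genome around its start, 89.7% were unique for RpS15Ab and 100% for each of the other 37 genes. How the authors treated reads that match more than 1 place is not stated, so the absence of a peak at RpS15Ab is uncertain.

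RpS14a and RpS14b stand in tandem on the X, with their starts 1156 bp apart and coding sequences 97.8% identical. RpS14b had a pooled signal of 171.8 but ranked 5269 in replicate 1 and 1661 in replicate 2, whereas RpS14a had 140.2 and ranked 2784 and 4367. Which of the copies ranked better therefore depended on the replicate.

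**Figure D5:**
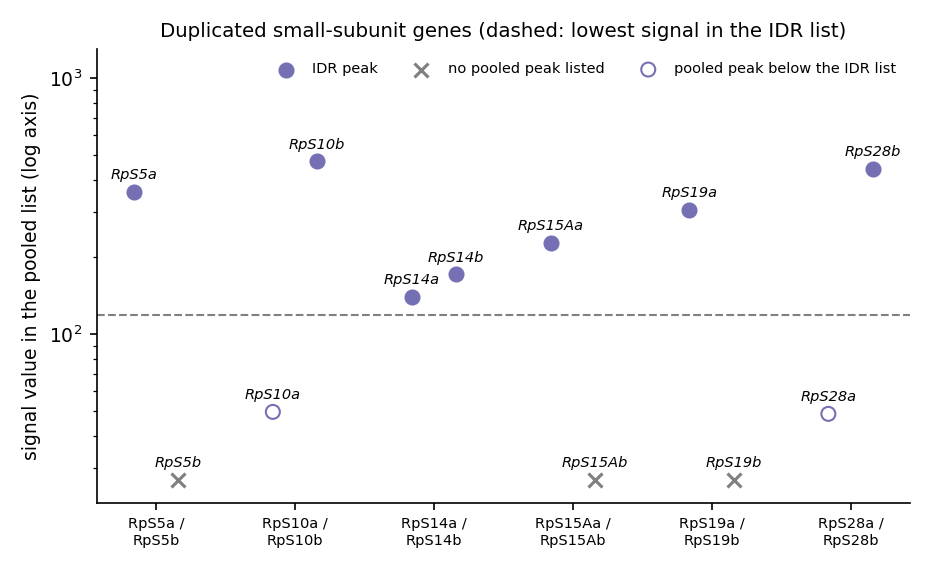
Signal value of the strongest promoter peak in the pooled list (log axis) for both genes of each duplicated pair. Filled circles have an IDR peak, open circles a pooled peak below the lowest IDR signal (dashed, 119.5), and crosses at the bottom no pooled peak; in 5 of the 6 pairs 1 copy lies above the line and the other below it or at a cross.

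Of the 6 single-copy genes without an IDR summit, 4 were within the 6000 strongest pooled peaks. Among them RpS9, whose bacterial counterpart affects the accuracy of codon reading, had 113.2 (rank 5533 in replicate 1 and 4346 in replicate 2), and RpS26, at the exit channel, had 105.3 (ranks 4989 and 5092). RpS24 had 80.72 (ranks 14065 and 6650), with its summit 147 bp inside the gene, in an intron. RpS13, a platform protein gene, had the lowest pooled signal of the 35 genes with one, 43.3 (ranks 11253 and 10547).

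RpS26 also carried an IDR peak of 135.1 far from its start, in the 3' UTR at 1784 bp (summit at 2L position 18441444). Just outside the 500 bp window, RpS19b, RpS28a, RpS28b and RpS5a each had an IDR summit (at -883, 574, -792 and -854 bp from their starts, in this order) that was closer to the TSS of another gene.

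Other genes of the ribosome pathway are set here against the 14% of all protein-coding genes with an IDR summit. The large-subunit genes had one in 44 of 54 (81.5%, exact interval 68.6 to 90.7%), led by RpL7 with a signal of 918.3 and RpL19 with 586.4. Without the 4 genes with -like symbols it was 43 of 50 (86%). Rack1, for a scaffold protein that binds the head of the small subunit, had 309.1 with its summit at -10 bp, and S6k, for the S6 kinase, had a peak of 32.3 in replicate 2 alone.

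Mitochondrial small-subunit genes had an IDR summit in 7 of 26 (26.9%, 11.6 to 47.8%), with a median signal of 157. The highest, mRpS23 (1319) and mRpS10 (1283), had summits nearer to another gene's TSS. Genes for assembly of the small subunit had 2 of 9 (22.2%, 2.81 to 60%), nop5 at 165.3 and RIOK1, a kinase of late assembly, at 123.6. Genes for initiation factors that bind the small subunit had 5 of 22 (22.7%, 7.82 to 45.4%), led by eIF1 (405.2, nearer to another gene's TSS) and eIF3h (318.5). The intervals of these last 3 lists include the 14% of all protein-coding genes.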

How the data were processed

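ChIP-seq was done on 2 biological replicates of 1 group, per the labels. The authors deposited peak lists on dm6 with a signal value per peak, the peak caller's own measure of coverage enrichment over a control alignment; the aligner, the caller and the IDR cutoff are not named in the labels or file records used. Read depth is unknown, so no interval for reads is given.

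Each list was read with Python 3.11.15, numpy 2.4.6 and scipy 1.17.1, and genes were scored with the TSSs of Ensembl release 115. A gene was called when a summit lay within 500 bp of any TSS. Words were searched in the Release 6 genome by exact matching of letters in Python. Shares carry exact binomial 95% intervals. There is 1 group, so no test between groups was run. The finding of promoter summits was tested on simulated peaks.

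The genes, lists, words and comparisons were chosen with earlier results of these data known. Described in full are the 10 strongest genes, those without an IDR summit, duplicated pairs, genes whose summit is nearer to another gene and the 2 strongest genes of each pathway list. Of the 38 genes, 3 are counted throughout but not reported one by one here. The dm3 lists were not used here.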

Additional observations from a re-analysis of the deposited data

How the results depend on the processing

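In this section percentages in brackets are the shares of the other protein-coding genes by the same setting. The count of 27 genes with an IDR summit (13.8%) was 27 with a 250 bp window (10.6%). It was 29 with a 1000 bp window (16.8%), which adds RpS19b and RpS28a, and 21 in the stronger 50% of the peaks (7.67%). With 1 replicate left out it was 23 without replicate 2 (13.3%) and 27 without replicate 1 (14.4%). Without replicate 2 RpS3, RpS14b, RpS30 and RpS2 were lost, and without replicate 1 RpS14a was lost and 1 gene gained. Among genes with no other TSS within 1000 bp the count was 5 of 10 (8.38%). The median summit position of -11 bp was 2 bp, on the other side of the TSS, when 1 TSS per gene was used, and -11 to -6 bp with 1 replicate left out. The TCT count of 21 (2.72%) was 24 within 20 bp (5.25%), 23 at the TSS closest to the summit and 29 at any annotated TSS (3.89%). Of 23 alternatives, 4 of them added after the data were seen, 20 stayed within the tolerance. The tolerance was 1.5 times for a count, 10% for a median signal, and 1 SD between replicates for a percentile or position. That SD came from the same replicates that were left out in turn. The 3 that moved were the count among genes with no other TSS within 1000 bp, and the median position with 1 TSS per gene and without replicate 1. No paired analysis was possible because there is 1 group and no test. The unknown depth limits statements on genes without a peak: they had no peak listed, which does not show absence of CG2875.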
